A study of Drosophila melanogaster with 12 samples.

Results

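The Jonah proteases, the trypsins and the Ser proteases are secreted serine endopeptidases. Their transcripts were examined in whole adult females of Drosophila melanogaster reared from egg on 4 diets of different protein-to-carbohydrate (P:C) ratio. With earlier results of these data known, transcripts of this family were chosen by name: those named Jon followed by a number, those named by a Greek letter followed by Try, and those named Ser followed by a number. These are 31 of the 15448 transcripts counted, namely 16 Jonah, 11 trypsin and 4 Ser transcripts, 1 for each gene. The flies came from a large outbred baseline population with no mutation or transgene named in the labels, and the diets differed in sugar and yeast at equal calories. The groups were 3 test diets, with a ratio of 0.25, 0.55 or 0.70, and the control diet with a ratio of 0.40, on which the baseline population is kept. Each group had 3 biological replicates, each made of 12 pooled females frozen on day 13 post egg collection, and RNA was enriched for polyA before sequencing.

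Jonah proteases and trypsins are made as inactive precursors by the enterocytes of the midgut and are activated in the gut lumen. There they cut dietary protein into peptides. Where the Ser proteases are made and what they cut was not examined. Trypsins cut after lysine and arginine, whereas the Jonah proteases resemble chymotrypsins and elastases, which cut after other residues. In insects the digestive proteases are known to respond to the amount and kind of food, and Jonah and trypsin genes lie in tandem clusters of similar copies.

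Most of the 31 transcripts lay in clusters on the BDGP6 (dm6) assembly. All 11 trypsins lay on chromosome 2R between 11336840 and 11357537, a stretch of 20698 bp that also holds CG30025, CG30031 and CG13202. The 4 Jon65A genes lay on 3L between 6039155 and 6054443, the 3 Jon25B genes on 2L between 4949941 and 4955144, and the 3 Jon99C genes on 3R between 29922216 and 29926189. Jon66Ci and Jon66Cii formed a pair on 3L, and Jon99Fi and Jon99Fii a pair on 3R. The counted span matched a transcript of the same gene in the annotation for 30 of the 31, Jon74E-RA being the exception, and 25 of these 30 have a single exon, with no intron. The encoded proteins of the trypsins are 252 to 280 residues long and those of the Jonah proteases 258 to 276, while Ser7 encodes 397 residues. gammaTry-RA and deltaTry-RA have the same length of 810 bp and are near-identical copies, as are Jon99Cii and Jon99Ciii at the protein level, so reads may have been split between such copies and their single values are uncertain. Jon44E-RA, Ser8-RA and deltaTry-RA overlap another counted transcript, namely CG8586-RC, CG42321-RK and CG13202-RA, and the strand setting of the counting is not given in the sources used here.

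The protease transcripts differed widely in level. Levels are given in CPM, counts scaled to library size, with libraries adjusted by trimmed mean of M values (TMM), and transcripts are compared with each other only as mean CPM per kb of exon over all 12 samples. On that scale Jon99Cii-RA was highest at 3585 CPM per kb, followed by Jon65Aiv-RA at 3058, alphaTry-RA at 2282, Jon99Ciii-RA at 2148, Jon65Aiii-RA at 2072 and betaTry-RB at 1556. Jon66Cii-RA was lowest at 1.31 CPM per kb, below Ser12-RA at 4.89 and Jon66Ci-RA at 5.43. The 11 trypsins of the single cluster alone ranged between 11.2 CPM per kb for etaTry-RA and 2282 for its neighbour alphaTry-RA. Of the family's counts, Jon99Cii-RA held 15.7%, Jon65Aiv-RA 14.0%, Jon99Ciii-RA 13.6%, alphaTry-RA 9.98%, Jon65Aiii-RA 9.17% and betaTry-RB 8.49%, and all 4 Ser transcripts held between 0.0216% and 0.115% each. In absolute level, 17 of the 31 averaged over 100 CPM, 13 of them Jonah and 4 trypsins, and 3 averaged under 10 CPM. The shares of all transcripts at these levels were not computed.

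**Figure D1:**
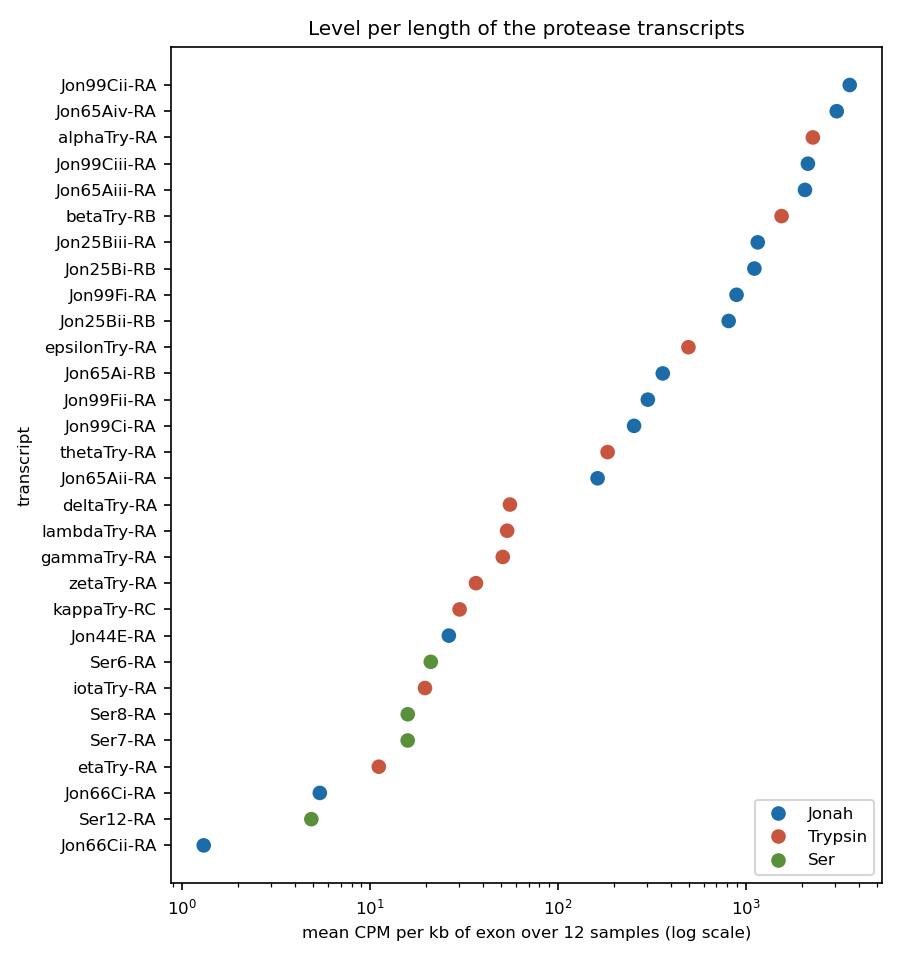
Mean level of each protease transcript over all 12 samples in CPM per kb of exon (x axis, log scale), 1 point per transcript, coloured by Jonah, trypsin or Ser. Jon99Cii-RA stands highest at 3585 and Jon66Cii-RA lowest at 1.31, and Jon74E-RA is not drawn because its counted span matches no annotated transcript.

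Protease RNA was lower on P:C 0.70 than on the other 3 diets as a sum over the family, and the sums on the 3 lower ratios overlapped. The summed level of the 31 transcripts was 26054, 20111 and 20812 CPM on P:C 0.25, 19753, 19839 and 23219 CPM on P:C 0.40, 22997, 19649 and 20797 CPM on P:C 0.55, and 12688, 14427 and 15525 CPM on P:C 0.70. Every P:C 0.70 sample lay below every other sample. As a share of all counts the family made up 1.48% ± 0.13 on P:C 0.70, against 2.09% ± 0.17 on P:C 0.40 (SD, n = 3 each). The ratio of mean summed levels was 0.679 for P:C 0.70 over P:C 0.40, 0.637 for P:C 0.70 over P:C 0.25 and 0.672 for P:C 0.70 over P:C 0.55. It was 1.07 for P:C 0.25 over P:C 0.40 and 1.01 for P:C 0.55 over P:C 0.40. Leaving out each replicate in turn kept the first of these ratios between 0.648 and 0.718. No p is given for the sum, and in whole-fly RNA a smaller number of midgut cells and less protease RNA per cell cannot be told apart.

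The Jonah and trypsin sums moved by similar ratios. Jonah transcripts summed to 10911 ± 1260 CPM on P:C 0.70, against 16004 ± 1047 CPM on P:C 0.40, a ratio of 0.682. Trypsin transcripts summed to 3253 ± 199 CPM on P:C 0.70, against 4876 ± 934 CPM on P:C 0.40, a ratio of 0.667. The Ser transcripts summed to 50.2 ± 3.35 CPM on P:C 0.70, against 57.8 ± 0.89 CPM on P:C 0.40 (SD, n = 3 in each case), a ratio of 0.869. In all 3 sets the P:C 0.70 samples lay below the P:C 0.40 samples without overlap. The Ser sum also lay higher on P:C 0.25, at 65.5 ± 4.42 CPM, than on P:C 0.40 without overlap, a ratio of 1.13, while the Jonah and trypsin sums overlapped between these diets. Most of that difference was in Ser8-RA, at 16.3 ± 3.47 CPM on P:C 0.25 and 9.04 ± 3.01 CPM on P:C 0.40. Ser6-RA had a slightly higher mean on P:C 0.25, and Ser7-RA and Ser12-RA had lower ones. By mean level, 29 of the 31 transcripts were lowest on P:C 0.70, with Jon99Ci-RA and Ser8-RA as the exceptions, and 18 were highest on P:C 0.25. Only 13 of the 31 fell at each step along the 4 ratios, so for most members the mean did not follow the ratio step by step. The shares of all transcripts with these patterns of means were not computed, so the counts describe the members only.

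**Figure D2:**
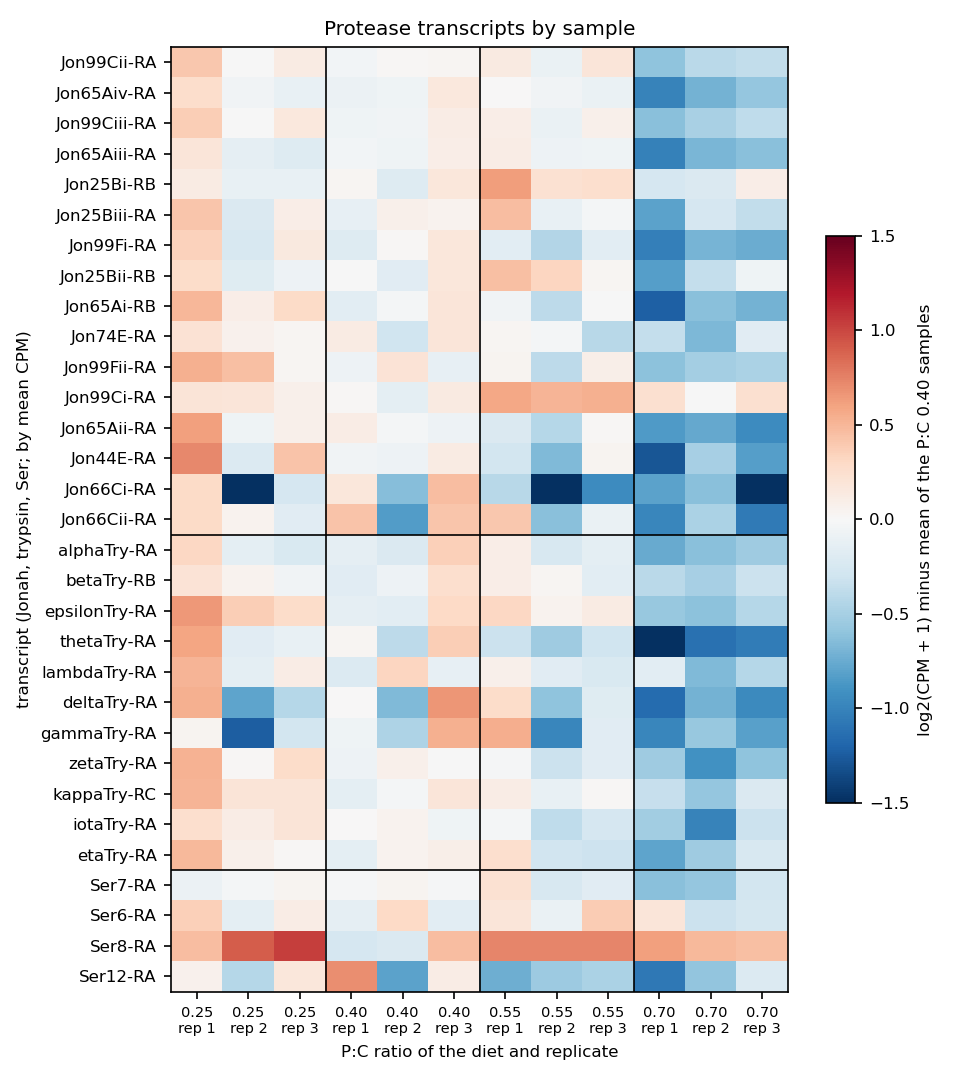
Heat map of all 31 protease transcripts (rows, by set and mean CPM) in the 12 samples (columns, by P:C ratio of the diet and replicate), coloured by log2(CPM + 1) minus the mean of the 3 P:C 0.40 samples. The 3 columns of P:C 0.70 are the lowest for most rows, and Jon99Ci-RA and Ser8-RA are rows where their mean is not.

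The comparison of P:C 0.70 with P:C 0.40 asked which members changed on the most protein-rich diet. Transcripts were called changed at an adjusted p under 0.05 over all transcripts tested and a change of more than 1.5-fold, in edgeR's quasi-likelihood test. Of the 31 members, 30 passed the filter on low counts, and Jon66Cii-RA, at 0.156, 0.642 and 0.0946 CPM on P:C 0.70 and 2.06, 0.274 and 2.03 CPM on P:C 0.40, did not. In this comparison 11 of the 30 fell and none rose, where 3.82% of all 9705 transcripts tested fell and 0.577% rose. They were 6 Jonah transcripts and 5 trypsins, and no Ser transcript. In 21 of the 30 every P:C 0.70 sample lay below every P:C 0.40 sample, as in 17.9% of all transcripts tested. Estimates were below 0 for 28 of the 30, where 49.6% of all tested were, and the median log2 fold change was -0.56 over the 30 and 0.00 over all transcripts tested. At the adjusted p alone, without the fold minimum, 17 of the 30 were lower, where 6.59% of all tested were.

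Among the Jonah proteases, the whole Jon65A cluster fell on P:C 0.70. Jon65Aiv-RA, its most abundant member, had 1534, 1881 and 2066 CPM on P:C 0.70, against 2893, 2939 and 3431 CPM on P:C 0.40 (log2 fold change -0.76 ± 0.11, adjusted p = 0.0131). Jon65Aiii-RA had 1011, 1265 and 1322 CPM on P:C 0.70, against 1989, 1956 and 2184 CPM on P:C 0.40 (log2 fold change -0.78 ± 0.10, adjusted p = 0.00892). In both, the 3 samples of P:C 0.70 lay well below all 9 others, and the P:C 0.70 replicate 1 was the lowest of the 12. Jon65Aii-RA, present at a lower level, had 83.4, 88.1 and 78.1 CPM on P:C 0.70, against 163, 148 and 143 CPM on P:C 0.40 (log2 fold change -0.87 ± 0.08, adjusted p = 0.00209). Jon65Ai-RB, on the opposite strand, had 158, 239.7 and 228 CPM on P:C 0.70, against 333, 366 and 424 CPM on P:C 0.40 (log2 fold change -0.84 ± 0.15, adjusted p = 0.0191). The 4 neighbours thus changed by similar amounts although Jon65Aiv-RA stood at 3058 and Jon65Aii-RA at 163 CPM per kb. On the other diets Jon65Aiv-RA averaged 3168 ± 463 CPM on P:C 0.25 and 2976 ± 107 CPM on P:C 0.55 (SD, n = 3 each), both overlapping P:C 0.40. Jon65Aii-RA averaged 178 ± 46.4 CPM on P:C 0.25 and 131 ± 20.1 CPM on P:C 0.55, and its mean fell at each step of the ratio.

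The remaining Jonah transcripts called were Jon99Fi-RA and Jon44E-RA. Jon99Fi-RA had 471, 592 and 571 CPM on P:C 0.70, against 839, 969 and 1081 CPM on P:C 0.40 (log2 fold change -0.83 ± 0.11, adjusted p = 0.009), with no overlap. Jon44E-RA, a gene outside the clusters, had 15.9, 28.2 and 22.2 CPM on P:C 0.70, against 38.8, 38.2 and 43.7 CPM on P:C 0.40 (log2 fold change -0.84 ± 0.17, adjusted p = 0.0288), and its span shares positions with CG8586-RC. The neighbour of Jon99Fi, Jon99Fii-RA, was lower at an adjusted p of 0.0176 in edgeR's test but stayed under the fold minimum (log2 fold change -0.55 ± 0.09). The abundant pair Jon99Cii and Jon99Ciii did likewise. Jon99Cii-RA had 2074, 2391 and 2439.8 CPM on P:C 0.70, against 3059.7, 3188 and 3219 CPM on P:C 0.40 (log2 fold change -0.46 ± 0.08, adjusted p = 0.0176). Jon99Ciii-RA had 1783, 1959 and 2122 CPM on P:C 0.70, against 2633, 2659.5 and 2986 CPM on P:C 0.40 (log2 fold change -0.50 ± 0.09, adjusted p = 0.0178). Counted as 1 feature, which removes any split of reads between these copies, the pair gave a log2 fold change of -0.48 with adjusted p = 0.0168. In Jon99Cii-RA and Jon99Ciii-RA the P:C 0.70 samples were lower than every sample of the other diets.

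Other Jonah transcripts did not change by the test. The Jon25B cluster differed within itself: Jon25Biii-RA averaged 714 ± 137 CPM on P:C 0.70 and 984 ± 71.9 CPM on P:C 0.40 without overlap (adjusted p = 0.0511), while Jon25Bi-RB averaged 848 ± 117 CPM on P:C 0.70 and 922 ± 117 CPM on P:C 0.40 with overlap (SD, n = 3 each, log2 fold change -0.13 ± 0.12). Whether these neighbours differ from each other in their response was not tested. Jon99Ci-RA, next to Jon99Cii, had 233, 196 and 234 CPM on P:C 0.70, against 200.004, 178 and 216 CPM on P:C 0.40 (log2 fold change 0.15 ± 0.10, adjusted p = 0.296). It was thus the only Jonah transcript with a positive estimate among the 15 tested. Jon66Ci-RA had the largest Jonah estimate, a log2 fold change of -1.30 ± 0.42, but at 3.44, 3.99 and 1.32 CPM on P:C 0.70 and 7.73, 3.97 and 9.69 CPM on P:C 0.40 it rested on 22, 56 and 14 counts on P:C 0.70 and 60, 29 and 86 counts on P:C 0.40 and was not called (adjusted p = 0.0751). Jon25Bii-RB and Jon74E-RA had log2 fold changes of -0.39 and -0.41, and their groups overlapped.

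**Figure D3:**
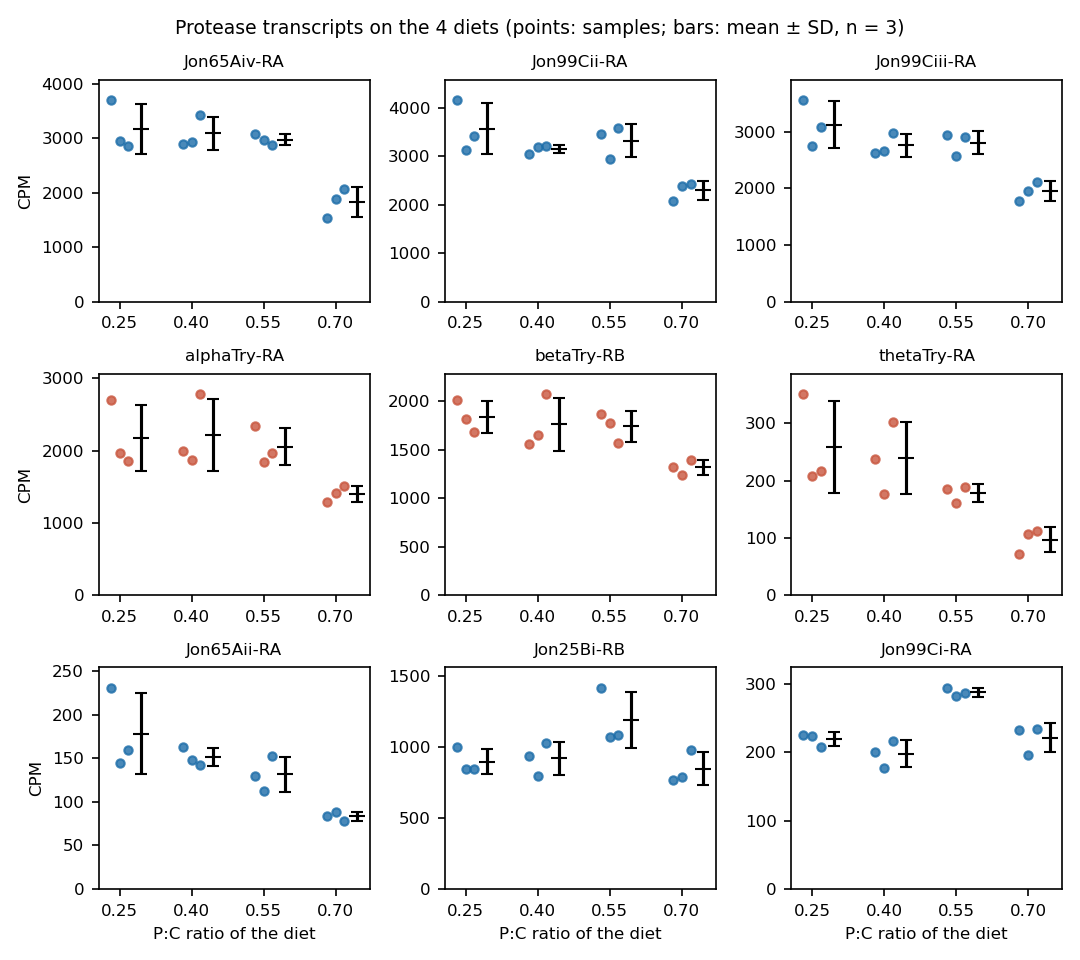
CPM of 9 protease transcripts in each sample (points) by P:C ratio of the diet, with the mean and SD of the 3 replicates (bars). The panels, Jon65Aiv-RA to Jon65Aii-RA in reading order, have all 3 samples of P:C 0.70 below the other 9, whereas Jon25Bi-RB and Jon99Ci-RA are highest on P:C 0.55.

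The 11 trypsins all had negative estimates on P:C 0.70, and 5 of them were called lower. thetaTry-RA fell the most, with 72.5, 107 and 112 CPM on P:C 0.70, against 238, 177 and 302 CPM on P:C 0.40 (log2 fold change -1.30 ± 0.20, adjusted p = 0.0132). alphaTry-RA, the most abundant trypsin, had 1289, 1416 and 1512 CPM on P:C 0.70, against 1992, 1870.2 and 2785 CPM on P:C 0.40 (log2 fold change -0.66 ± 0.14, adjusted p = 0.0306). zetaTry-RA had 25.5, 19.4 and 24.2 CPM on P:C 0.70, against 35.3, 39.5 and 37.2 CPM on P:C 0.40 (log2 fold change -0.72 ± 0.12, adjusted p = 0.0178). In none of the 3 did the diets overlap, and in alphaTry-RA and thetaTry-RA the P:C 0.40 replicate 3 stood highest of the control samples. gammaTry-RA had 24.7, 33.3 and 27.8 CPM on P:C 0.70, against 47.6, 35.8 and 72.2 CPM on P:C 0.40 (log2 fold change -0.86 ± 0.23, adjusted p = 0.0473). deltaTry-RA had 23.1, 32.01 and 26.8 CPM on P:C 0.70, against 52.96, 32.97 and 83.7 CPM on P:C 0.40 (log2 fold change -1.05 ± 0.28, adjusted p = 0.049). In both, the lowest control sample, replicate 2, was the closest to the highest P:C 0.70 sample. Summed with CG30025 and CG30031, their similar neighbours in the cluster, they gave a log2 fold change of -0.98 with adjusted p = 0.0364.

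betaTry-RB and epsilonTry-RA, the next trypsins by CPM, passed the adjusted p but not the fold minimum. betaTry-RB had 1319, 1239 and 1398 CPM on P:C 0.70, against 1562, 1656 and 2078 CPM on P:C 0.40 (log2 fold change -0.43 ± 0.11, adjusted p = 0.0429). epsilonTry-RA had 266, 257 and 292 CPM on P:C 0.70, against 358, 353 and 486 CPM on P:C 0.40 (log2 fold change -0.56 ± 0.12, adjusted p = 0.0324). In both, every P:C 0.70 sample was lower. The 4 others, etaTry-RA, iotaTry-RA, kappaTry-RC and lambdaTry-RA, had log2 fold changes of -0.55, -0.65, -0.41 and -0.45, with adjusted p between 0.0591 and 0.0993, and lambdaTry-RA alone of these had overlapping groups.

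The Ser transcripts were low in level and none was called. Ser7-RA had 15.6, 16.2 and 20.2 CPM on P:C 0.70, against 24.2, 25.4 and 24.2 CPM on P:C 0.40, lower without overlap but under the fold minimum (log2 fold change -0.51 ± 0.13, adjusted p = 0.043). Ser6-RA had 20.9, 14.5 and 15.1 CPM on P:C 0.70, against 16.6, 22.7 and 16.3 CPM on P:C 0.40 (log2 fold change -0.16 ± 0.19, adjusted p = 0.557). Ser8-RA had 13.9, 12.7 and 12.3 CPM on P:C 0.70, against 7.22, 7.39 and 12.5 CPM on P:C 0.40 (log2 fold change 0.50 ± 0.22, adjusted p = 0.153). The diets overlapped in Ser6-RA and Ser8-RA, and Ser8-RA was the member with the highest estimate of the family. Ser12-RA averaged 3.04 ± 1.19 CPM on P:C 0.70 and 5.58 ± 3.15 CPM on P:C 0.40 (SD, n = 3 each), with overlap.

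**Figure D4:**
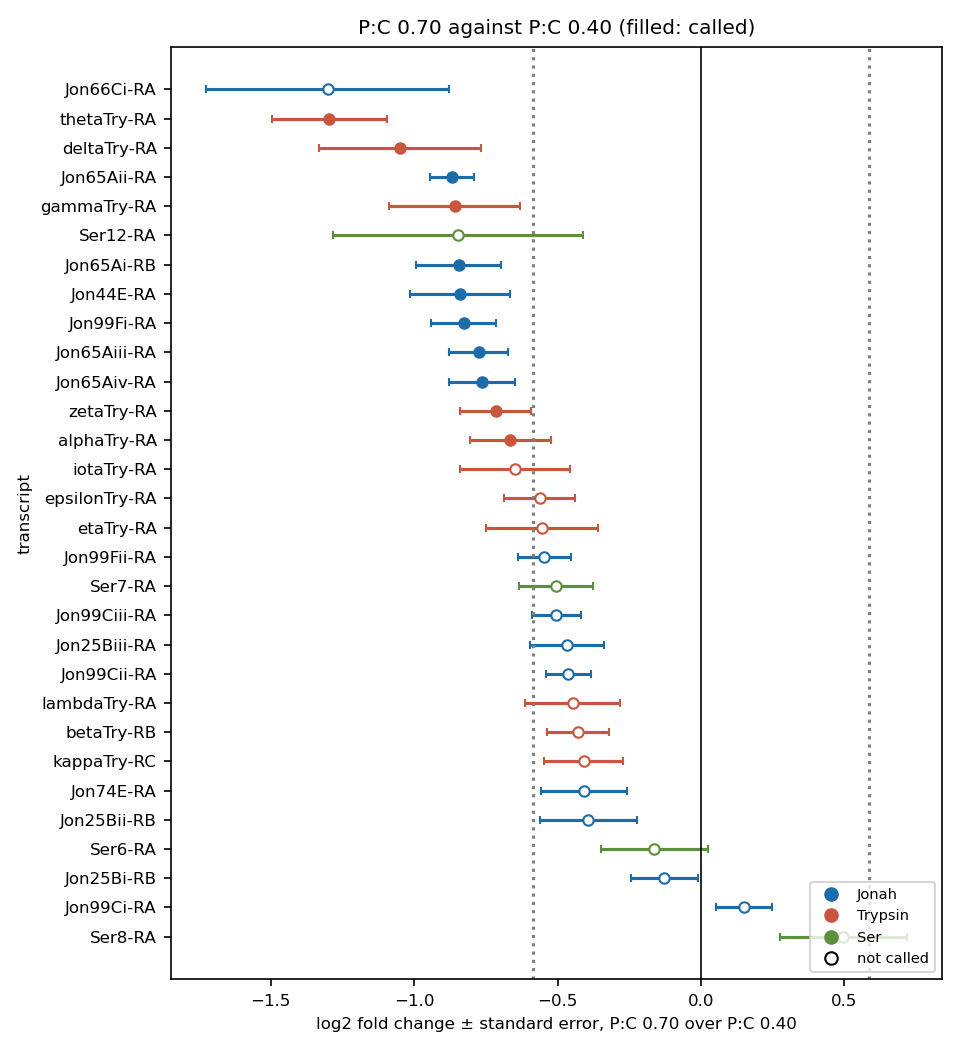
log2 fold change of P:C 0.70 over P:C 0.40 for the 30 protease transcripts tested (points, with the standard error as bars), filled where called and coloured by Jonah, trypsin or Ser, with dotted lines at a 1.5-fold change. The 11 called transcripts lie between -1.30 and -0.66, and only Jon99Ci-RA and Ser8-RA lie above 0.

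The number of calls depended on single samples. It was 4 without the P:C 0.40 replicate 1 (of 72 calls among all transcripts), 6 without the P:C 0.40 replicate 3 (of 69) and 4 without the P:C 0.70 replicate 1 (of 46). Over all 6 such fits it ranged between 4 and 15, against 11 with all samples (of 427). Jon65Aii-RA, Jon65Aiii-RA, Jon65Aiv-RA and Jon99Fi-RA were called in all 6 fits and thetaTry-RA in 4. Jon44E-RA, Jon65Ai-RB and zetaTry-RA were called in 3 each, alphaTry-RA in 2, and deltaTry-RA and gammaTry-RA in 1 each. The estimates of the 11 kept their sign in every fit, the weakest being -0.46 for alphaTry-RA.

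Against P:C 0.25, the diet with the least protein, 18 of the 30 members tested fell on P:C 0.70 and none rose. Of all transcripts tested, 17.5% fell and 1.8% rose. The median log2 fold change was -0.71 over the members and 0.00 over all tested, and 21 of the 30 were without overlap, where 26.5% of all tested lay below. thetaTry-RA again fell the most, to 97.2 ± 21.6 CPM on P:C 0.70, against 258 ± 80.4 CPM on P:C 0.25 (log2 fold change -1.42 ± 0.22, adjusted p = 0.00271). Jon44E-RA, Jon65Ai-RB, Jon65Aii-RA, zetaTry-RA and epsilonTry-RA followed, with log2 fold changes of -1.22, -1.16, -1.11, -1.02 and -0.9995. The abundant Jon99Cii-RA and Jon99Ciii-RA passed the fold minimum here, at -0.65 and -0.70. gammaTry-RA and deltaTry-RA were not called, and P:C 0.25 replicate 2 was as low as the P:C 0.70 samples, with 20.6 CPM of gammaTry-RA and 30.1 CPM of deltaTry-RA. Jon99Ci-RA overlapped between these diets, with 221 ± 21.3 CPM on P:C 0.70 and 219 ± 10.01 CPM on P:C 0.25 (SD, n = 3 each).

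Against P:C 0.55, 5 of the 30 members fell on P:C 0.70 and none rose, where 1.48% of all transcripts tested fell and 0.208% rose. They were Jon65Aii-RA, Jon65Aiii-RA, Jon65Aiv-RA, epsilonTry-RA and thetaTry-RA. epsilonTry-RA had 266, 257 and 292 CPM on P:C 0.70, against 488, 409.8 and 429 CPM on P:C 0.55 (log2 fold change -0.70 ± 0.09, adjusted p = 0.0204), with no overlap. The 3 Jon65A transcripts had log2 fold changes of -0.65, -0.75 and -0.70, in the order just named, and thetaTry-RA of -0.87. In 21 of the 30 every P:C 0.70 sample was below every P:C 0.55 sample, as in 17.7% of all tested, and the median log2 fold change was -0.52. The count was 0 without P:C 0.55 replicate 2 (of 15 calls among all transcripts), P:C 0.70 replicate 1 (of 1) or P:C 0.70 replicate 2 (of 32). It was 1 without P:C 0.55 replicate 1 (of 20). It was 8 without P:C 0.55 replicate 3 (of 770) and 10 without P:C 0.70 replicate 3 (of 421), against 5 with all samples (of 162).

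No member was called on P:C 0.25 or P:C 0.55 against P:C 0.40, and P:C 0.55 was not tested against P:C 0.25. On P:C 0.25 against P:C 0.40, 0 of the 31 were called, where 0.636% of all transcripts tested were, by edgeR (DESeq2 also called 0), and 5 had an unadjusted p under 0.05, as did 17% of all tested. iotaTry-RA and kappaTry-RC lay above P:C 0.40 in all 3 samples of P:C 0.25, as did 13% of all tested, with log2 fold changes of 0.20 and 0.31 and adjusted p of 0.383 and 0.277 in edgeR's test. On P:C 0.55 against P:C 0.40, 0 of the 31 were called, where 0.0415% of all tested were, by edgeR (DESeq2 also called 0), and 6 had an unadjusted p under 0.05, as did 3.6% of all tested. In that comparison Jon25Bi-RB, Jon99Ci-RA and Ser8-RA lay higher in all 3 samples of P:C 0.55, as did 4.09% of all tested. Jon99Ci-RA had 294, 282 and 287 CPM on P:C 0.55, against 200.004, 178 and 216 CPM on P:C 0.40 (log2 fold change 0.54 ± 0.09, adjusted p = 0.0883). Jon25Bi-RB had 1421, 1073 and 1089 CPM on P:C 0.55, against 935, 799 and 1032 CPM on P:C 0.40 (log2 fold change 0.37 ± 0.13, adjusted p = 1). Ser8-RA had 15.3, 15.2 and 15.2 CPM on P:C 0.55, against 7.22, 7.39 and 12.5 CPM on P:C 0.40 (log2 fold change 0.74 ± 0.22, adjusted p = 0.885). None of these differences passed the test.

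Sample by sample, the abundant Jonah transcripts overlapped the control on P:C 0.25 and on P:C 0.55. Jon99Cii-RA had 4163, 3134 and 3422 CPM on P:C 0.25 and 3469, 2939 and 3579 CPM on P:C 0.55. Jon99Ciii-RA had 3561, 2752 and 3078 CPM on P:C 0.25 and 2947, 2571 and 2911 CPM on P:C 0.55. Jon65Aiv-RA had 3699, 2956 and 2849 CPM on P:C 0.25 and 3086, 2967 and 2874 CPM on P:C 0.55. In all of them P:C 0.25 replicate 1 was the highest of the 12 samples, as it was for 17 of the 31 members. The share of all transcripts highest in that sample was not computed. Within the Jon65A cluster, Jon65Aiii-RA had 2315, 1860.2 and 1778 CPM on P:C 0.25 and 2204, 1931 and 1945 CPM on P:C 0.55. Its neighbour Jon65Aii-RA had 231, 144 and 159.6 CPM on P:C 0.25 and 129.8, 112 and 152 CPM on P:C 0.55. Jon65Ai-RB had 527, 399 and 455 CPM on P:C 0.25 and 358, 282 and 371 CPM on P:C 0.55. All 4 Jon65A transcripts overlapped the control on both diets. Jon99Fi-RA had 1215, 809.96 and 1063 CPM on P:C 0.25 and 856, 704 and 861 CPM on P:C 0.55. Jon44E-RA, the least abundant of the Jonah transcripts called, had 66.9, 34.8 and 54.1 CPM on P:C 0.25 and 33.02, 25.04 and 41.2 CPM on P:C 0.55. Both overlapped the control on each of the diets, and P:C 0.70 replicate 1 was the lowest of all samples for each, as for 17 of the 31 members. The share of all transcripts lowest in that sample was not computed either.

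The trypsins called or most abundant overlapped the control on these diets as well. alphaTry-RA had 2701, 1968 and 1857 CPM on P:C 0.25 and 2343, 1848 and 1974 CPM on P:C 0.55. betaTry-RB had 2018, 1814 and 1685 CPM on P:C 0.25 and 1873, 1781 and 1570.1 CPM on P:C 0.55. epsilonTry-RA had 621, 509 and 479 CPM on P:C 0.25 and 488, 409.8 and 429 CPM on P:C 0.55. These 3 overlapped the control on both diets, and the control replicate 3 was the highest of the 12 samples for alphaTry-RA and betaTry-RB. thetaTry-RA had 351, 207 and 216 CPM on P:C 0.25 and 186, 161 and 189 CPM on P:C 0.55. zetaTry-RA had 54.2, 37.7 and 45.4 CPM on P:C 0.25 and 36.8, 29.7 and 33.03 CPM on P:C 0.55. The means of both were lower at each step of the ratio. gammaTry-RA had 51.2, 20.6 and 41.1 CPM on P:C 0.25 and 73.4, 24.7 and 44.04 CPM on P:C 0.55. The copy deltaTry-RA had 76.5, 30.1 and 38.9 CPM on P:C 0.25 and 64.2, 34.3 and 46.4 CPM on P:C 0.55. Within each diet their samples spanned a wide range, and replicate 2 was the lowest on both diets. Among the Ser transcripts, Ser7-RA had 23.2, 24.1 and 25.4 CPM on P:C 0.25 and 28.99, 20.7 and 21.7 CPM on P:C 0.55. Ser6-RA had 23.8, 16.5 and 19.9 CPM on P:C 0.25 and 20.9, 17.1 and 24.1 CPM on P:C 0.55. Ser8-RA had 12.4, 17.4 and 19.1 CPM on P:C 0.25, where only replicate 1 lay within the range of the control.

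Read over all diets, 16 of the 31 members had every P:C 0.70 sample below the 9 other samples, where 9.73% of the 9928 transcripts kept over all 12 samples did. These were 9 Jonah transcripts, 6 trypsins and Ser7-RA. The 3 comparisons with P:C 0.70 share its samples, and the 3 with P:C 0.40 share the control samples, so they are not independent of each other.

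Along the ratio as a number over all 12 samples, slopes were called at an adjusted p under 0.05. A falling slope was called for 20 of the 31 members and a rising one for none. Of all transcripts, 19.6% were called falling and 17.1% rising. The 20 were 10 Jonah transcripts, 9 trypsins and Ser7-RA. Estimates were below 0 for 29 of the 31, and above 0 for Jon25Bi-RB (0.13) and Jon99Ci-RA (0.41), neither called. Slopes are in log2 units per unit of the ratio. The steepest called was that of thetaTry-RA (-3.06 ± 0.57, adjusted p = 0.002), followed by Jon44E-RA (-2.59 ± 0.49, adjusted p = 0.00224), Jon65Ai-RB (-2.36 ± 0.38, adjusted p = 0.000865) and Jon65Aii-RA (-2.31 ± 0.37, adjusted p = 0.000801). For Jon65Aiii-RA the slope was -1.42 ± 0.44, adjusted p = 0.0238, although its means on the 3 lower ratios were 1985 ± 289, 2043 ± 123 and 2027 ± 154 CPM and its mean on P:C 0.70 1199 ± 166 CPM (SD, n = 3 each). A called slope therefore does not show a steady change over the 4 diets. Without the P:C 0.70 replicate 2 the count was 13 (of 1638 calls among all transcripts).

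Members varied in how closely they followed the rest of the family over the 12 samples. The Pearson r of log2 CPM with the summed remaining members, given as a description over samples that share libraries and diets, was 0.98 for Jon99Ciii-RA, 0.97 for Jon65Aiv-RA and Jon65Aiii-RA and 0.94 for thetaTry-RA. It was 0.54 for Jon25Bi-RB, 0.39 for Ser6-RA, 0.17 for Jon99Ci-RA and 0.03 for Ser8-RA. Of 8451 transcripts over 5 CPM, those most like the summed family were yip7-RA (r = 0.97), CG3209-RE (0.97), CG42402-RD (0.96), CG11151-RA (0.96) and l(2)efl-RC (0.96), over the same 12 samples. yip7, itself a serine protease, had 1266 ± 119 CPM on P:C 0.70 and 1951 ± 66.03 CPM on P:C 0.40 (SD, n = 3 each). The lowest r were those of CG4884-RB (-0.96), CG7840-RA (-0.95) and moi-RA (-0.95).

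Other serine proteases of the same fold, listed as digestive, also fell in part. Where each of them is made was not examined, and in whole-female RNA a change outside the gut cannot be told apart. On P:C 0.70 against P:C 0.40, 8 of the 18 tested fell and none rose, where 3.82% of all transcripts tested fell and 0.577% rose. Their median log2 fold change was -0.62, against 0.00 for all transcripts tested. CG17234-RA fell to 1.63 ± 0.198 CPM on P:C 0.70, against 9.06 ± 3.52 CPM on P:C 0.40 (log2 fold change -2.45 ± 0.33, adjusted p = 0.00892). CG30025-RA, in the trypsin cluster, and CG17239-RB had log2 fold changes of -1.28 and -1.004. Serine proteases that act outside digestion, such as those of the Toll and dorsal pathways, fell in 2 of 12, ndl-RA at -0.73 and psh-RA at -0.65, with a median of -0.37. Serpins, the inhibitors of serine proteases, fell in 2 of 15, Spn28Dc-RA at -0.65 and Spn55B-RA at -0.60, with a median of -0.32. None of the transcripts in either list rose, and the share of falls among all transcripts tested is the same 3.82% for both lists.

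Enzymes that digest carbohydrate, fat and cell walls did not move one way. Of 22 tested, 5 rose and 3 fell on P:C 0.70 against P:C 0.40, where 0.577% of all transcripts tested rose and 3.82% fell, and the median log2 fold change was 0.05. The maltase Mal-A7-RB rose to 34.6 ± 17.7 CPM on P:C 0.70, against 10.7 ± 3.26 CPM on P:C 0.40 (log2 fold change 1.64 ± 0.37, adjusted p = 0.0349), and the maltase Mal-A6-RD had a log2 fold change of 1.25. CG9463-RB, a lysosomal alpha-mannosidase by its annotation, had one of 1.31. Also higher were the amylase Amy-p-RB, at 883 ± 204 CPM on P:C 0.70 and 493 ± 92.2 CPM on P:C 0.40 (log2 fold change 0.83 ± 0.18, adjusted p = 0.0304), and the maltase Mal-A1-RA, both named after their values were seen (log2 fold change 1.08 ± 0.24, adjusted p = 0.0349). The lysosomal alpha-mannosidases LM408-RB and CG5322-RB and the lysozyme LysP-RA, also named after their values were seen, fell by 0.83, 0.83 and 0.96 on the log2 scale. On P:C 0.70 against P:C 0.55 the same list had 6 falls and no rise among 23 tested, where 1.48% of all transcripts tested fell and 0.208% rose. On P:C 0.70 against P:C 0.25 it had 7 rises and 6 falls among 22, where 1.8% of all tested rose and 17.5% fell.

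**Figure D5:**
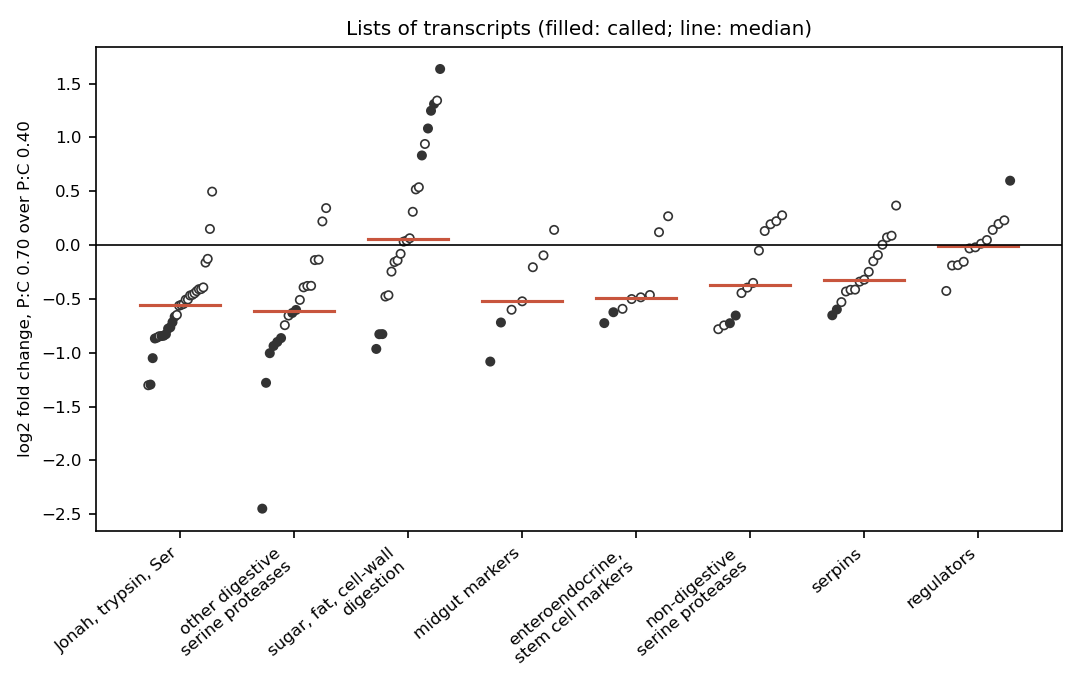
log2 fold change of P:C 0.70 over P:C 0.40 for the protease family and 7 lists of transcripts (points, filled where called, with the median as a line). The family and the other serine proteases listed as digestive lie mostly below 0, with medians of -0.56 and -0.62. The enzymes of sugar, fat and cell-wall digestion spread to both sides of 0.

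Factors known to act on digestive enzymes were read from a list of 12 tested. On P:C 0.70 against P:C 0.40, 1 rose and none fell, where 0.577% of all transcripts tested rose and 3.82% fell. Their median log2 fold change was 0.00. GATAe-RC, a transcription factor that maintains midgut identity, rose to 12.1 ± 0.751 CPM on P:C 0.70, against 8.001 ± 0.308 CPM on P:C 0.40 (log2 fold change 0.60 ± 0.15, adjusted p = 0.0419 in edgeR's test). On P:C 0.25 and P:C 0.55 it averaged 13.3 ± 3.502 and 11.5 ± 4.92 CPM (SD, n = 3 each), so P:C 0.40 had the lowest mean of the 4. daw-RC, the Activin-like ligand dawdle, averaged 20.02 ± 4.01 CPM on P:C 0.70 and 27.1 ± 3.51 CPM on P:C 0.40 (adjusted p = 0.104 in edgeR's test). On P:C 0.70 against P:C 0.25 it fell (log2 fold change -0.96 ± 0.26, adjusted p = 0.0225 in the same test). It was 1 of 12 to fall there, where 17.5% of all transcripts tested fell. lab-RB, the Hox factor of the copper cell region, was at 1.24 ± 0.165 CPM on P:C 0.70 and 1.13 ± 0.366 CPM on P:C 0.40, with overlap.

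Some markers of the midgut and of other tissues were also lower on P:C 0.70, muscle markers most often, and their part in the protease result was not tested. In whole-fly RNA the tissue that the reads of a marker came from cannot be told apart, so no list measures the gut alone. For comparison, 3.82% of all transcripts tested fell and 0.577% rose on P:C 0.70 against P:C 0.40. Of 9 enterocyte and midgut markers that are no proteases, 7 were tested and 2 fell on P:C 0.70 against P:C 0.40, PGRP-SC2-RA at -1.08 and Npc1b-RA at -0.72 on the log2 scale, with a list median of -0.52. No marker was at 0 in all samples, and the summed level was 482 to 493 CPM on P:C 0.70 and 546 to 597 CPM on P:C 0.40. Most of this sum was yin-RA, with means of 313 CPM on P:C 0.70 and 332 CPM on P:C 0.40. Estimates were below 0 for 6 of the 7 tested. Enteroendocrine and gut stem cell markers fell in 2 of 8, AstC-RB at -0.72 and pros-RI at -0.62, with summed levels of 1302 to 1631 CPM on P:C 0.70 and 1744 to 2140.5 CPM on P:C 0.40. Most of that sum was Dh31-RC, with means of 1239 CPM on P:C 0.70 and 1726 CPM on P:C 0.40. Estimates were below 0 for 6 of the 8, while the means of CCHa2-RC and Dl-RA were higher on P:C 0.70. Muscle markers fell in 7 of 8 on P:C 0.70 against P:C 0.40, with Act88F-RA, fln-RA and Mlc2-RA at -1.45, -1.07 and -0.95, and with summed levels of 1513 to 1844 CPM on P:C 0.70 and 2295 to 2998 CPM on P:C 0.40. Those 8 all rose on P:C 0.25 against P:C 0.40, where 0.616% of all transcripts tested rose. Ovary markers fell in 1 of 19, Vml-RB at -0.60, close to the share of falls among all transcripts tested. Their summed levels were 13345 to 17438 CPM on P:C 0.70 and 15345 to 20792 CPM on P:C 0.40. Of 5 fat body and yolk transcripts tested, Lsp2-RB rose at 0.95 and none fell, with summed levels of 44195 to 56761 CPM on P:C 0.70 and 58833 to 60944 CPM on P:C 0.40.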

How the data were processed

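RNA-seq was done on 12 whole-female samples. The authors' pipeline ran read trimming, hisat2 alignment against dm6 and Seqmonk counting over 1 transcript per gene, and the deposited values are unnormalized raw counts, 6094226 to 13245114 per sample. Whether the counting used strand is not given in the sources used here. A floor of 3 counts equals 0.226 to 0.492 CPM and covers counting error only, since duplicate reads were not marked by molecular identifiers.

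From the counts, each pair of diets was fitted on its own 6 samples with edgeR 4.0.16 in R 4.3.3 (TMM, filterByExpr by diet, quasi-likelihood test), with Benjamini-Hochberg adjustment over all transcripts tested. Calls needed an adjusted p below 0.05 and over 1.5-fold change. The slope on the P:C ratio used all 12 samples and no fold minimum. Standard errors are the log2 fold change over the square root of F. DESeq2 1.42.0 and other settings served as alternatives. Replicates of a diet differed by 4.85 to 17.8 in chi-square per degree of freedom, so none was a repeat of another.

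The members and the lists were chosen with earlier results of these data known. Values in every sample are given for members called against P:C 0.40 and for the 3 with the highest mean CPM of each set. From each list, the up to 3 called transcripts with the largest change are named, and GATAe, daw and lab in any case. List genes were matched by symbol or synonym and position in RefSeq (Release 6), 146 of 157 entries. The entry sug is not analysed here, because the table's transcript of that name lies at another gene. Exon lengths came from the Ensembl BDGP6 annotation. The deposited gene descriptions were not used, and sequences are not analysed here.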

Additional observations from a re-analysis of the deposited data

How the results depend on the processing

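For P:C 0.70 against P:C 0.40, 17 members were lower without the fold minimum and 9 to 12 under the other settings, against 11 as reported, and 4 to 15 when each replicate was left out. For P:C 0.70 against P:C 0.55, 5 were called. The count was 3 with library size alone (of 70 calls among all transcripts) and 8 with the DESeq2 test (of 314). It was 9 without the fold minimum (of 253) and 0 with the replicate number as a block (of 2). It was 0 to 10 when each replicate was left out. For P:C 0.70 against P:C 0.25, where 18 were called, it was 14 to 21, and 13 to 21 with a replicate left out. The slope gave 20 or 21, and 13 to 23 with a replicate left out. P:C 0.25 and P:C 0.55 against P:C 0.40 gave 0 under each setting tried. The ratio of summed levels ranged, over left-out replicates, between 0.648 and 0.718 for P:C 0.70 over P:C 0.40, 0.607 and 0.688 over P:C 0.25, 0.642 and 0.709 over P:C 0.55, 0.984 and 1.13 for P:C 0.25 over P:C 0.40, and 0.963 and 1.07 for P:C 0.55 over P:C 0.40. Replicate numbers did not pair the samples: of 18 same-numbered pairs, 4 had a correlation of deviations over 0.1, and the range was -0.337 to 0.342. With the replicate number as a block the counts were 12 for P:C 0.70 against P:C 0.40, 18 against P:C 0.25 and 20 for the slope. Scaling by library size alone moved the median log2 fold change of all transcripts to 0.07 for P:C 0.70 against P:C 0.40. Counting near-copies as 1 feature was chosen after seeing the data. The causes of these changes were not tested. Members under about 10 CPM, such as Jon66Ci-RA, Jon66Cii-RA and Ser12-RA, have the fewest counts of the family and so the widest counting error.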
